A study of Mus with 6 samples.

Results

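The genes described here encode the proteasome, and were taken as every probe whose annotated mouse symbol begins with Psma, Psmb, Psmc, Psmd, Psme, Psmf or Psmg and a digit. That rule found 86 probes of 49 genes, out of 45281 probes on the array. Of these, 47 genes encode subunits, activators or assembly factors. Psmc3ip and Psme3ip1 share only the prefix, since the first encodes a cofactor of meiotic recombination and the second a partner of the activator PA28 gamma. Psmf1 and Psme2b were not analysed here.

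The study compared leukaemic cells of wild-type (WT) and Klf4-deficient C57BL/6 mice with chronic myeloid leukaemia, on 3 one-colour Illumina arrays per group. All 6 arrays held RNA from bone marrow cells that carried the BCR-ABL p210 oncogene of this leukaemia, sorted on day 14 after transplantation. The sort took green fluorescent cells that lacked lineage markers and carried Sca-1 and c-Kit, the phenotype of blood stem cells and early progenitors called LSK. The labels give neither the way Klf4 was deleted, nor the age of the mice, nor whether each array came from a separate mouse, so that p-values reflect only the variation among the arrays, which may be technical.

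The proteasome is the protease that takes apart proteins tagged with ubiquitin. Its 20S core is a barrel of alpha and beta rings in which Psmb5, Psmb6 and Psmb7 carry the proteolytic sites. The 19S regulator caps the barrel, where Psmc ATPases unfold substrates and Psmd subunits bind ubiquitin and remove it. In blood cells, and after interferon, Psmb8, Psmb9 and Psmb10 can replace the standard catalytic subunits to form the immunoproteasome, which shapes the peptides shown on MHC class I, and the activator PA28 (Psme1 and Psme2) can take the place of the 19S cap. Proteasome inhibitors such as bortezomib are used in blood cancers.

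The deposited values are background-subtracted intensities on a linear scale, and a value of 32 was taken as the floor below which no order was read. Each array had 7082 to 7214 probes above it. WT replicate 3 stood apart from the rest, with Pearson correlations of 0.29 to 0.30 with the other arrays across 18270 probes, against 0.66 to 0.72 among those 5. On that array, probes of one gene can read at opposite ends of the scale (3184.5 and -3.1 for Psmb2), so its values are printed as probe readings, and whether they report the named genes was not tested. Where a difference is printed for a proteasome probe and moved by over 1.5 times or changed sign without WT replicate 3, it is given both ways. Klf4 itself was above the floor in 1 of 18 values (3 probes on 6 arrays), at 51.9 in WT replicate 2, so these arrays gave no check of the knockout labels. In sorted bulk RNA, fewer cells of a type and less RNA per cell cannot be told apart.

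Proteasome genes were above the floor far more often than the probes of the array in general on 5 of the 6 arrays. Of the 86 probes, 53 were above the floor in WT replicate 1, 58 in WT replicate 2, and 51, 49 and 52 in Klf4-deficient replicates 1, 2 and 3. These are 57.0% to 67.4% of the probes, where 15.6% to 15.9% of all probes lay above the floor on each array. WT replicate 3 had 18, or 20.9%. Of 33 proteasome probes above the floor on each of the other 5 arrays, 6 were also above it in WT replicate 3, or 18.2%, against 45.1% of 2657 such probes of the whole array. The median of these 33 probes was 203 in WT replicate 1, 152 in WT replicate 2 and 151, 130 and 154 in the Klf4-deficient arrays, but 4.1 in WT replicate 3.

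**Figure D1:**
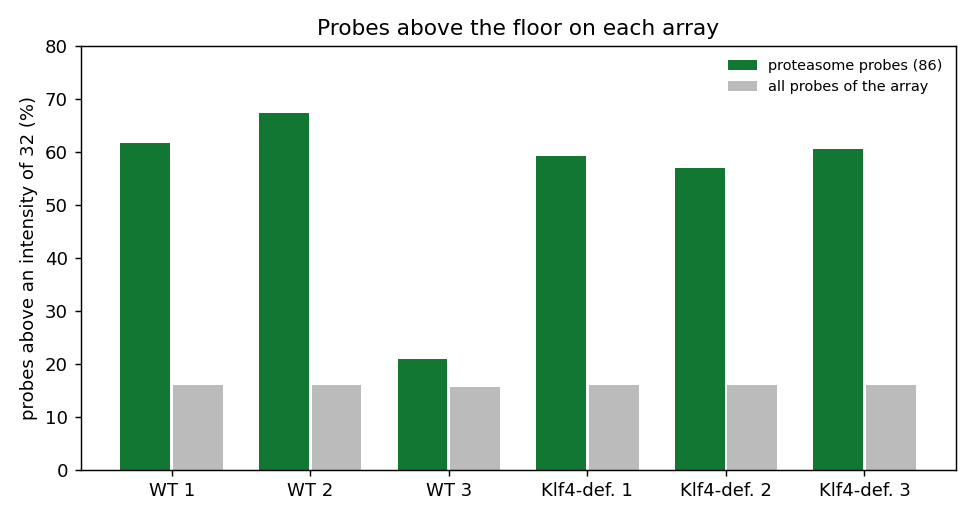
Share of the 86 proteasome probes (green bars) and of all 45281 probes (grey bars) with an intensity above 32, in percent, on each of the 6 arrays. Proteasome probes reach 57.0% to 67.4% on 5 arrays and 20.9% in WT replicate 3, while the share over all probes is 15.6% to 15.9% throughout.

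The low signal of WT replicate 3 did not touch every proteasome probe. Of its 18 probes above the floor, 6 were above it on all other arrays and 6 on none of them. Psmd4, a ubiquitin receptor of the 19S regulator, was the brightest proteasome probe, and read 14017.6 in WT replicate 3. It read 5447.3 and 2998.6 in the other WT arrays and 5090, 2014.8 and 3558.3 in the Klf4-deficient arrays (-0.88 ± 0.68, or -0.29 ± 0.53 without WT replicate 3). Psma8, an alpha subunit of the testis, read 922.5 on 1 of its 2 probes in WT replicate 3 and from -17.1 to -1.1 elsewhere. Its second probe stayed between -11.3 and -6.7 on all arrays. WT replicate 3 was the highest array for 14 of the 75 proteasome probes that exceeded the floor somewhere, or 18.7%, and for 29.2% of all 18270 such probes.

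Setting the Klf4-deficient arrays against the WT arrays asks which transcripts of the complex depend on Klf4 in leukaemic stem cells. No proteasome probe was called. Of 86 probes, 75 were tested, 38 of them higher and 37 lower with Klf4 deficiency, against 45.8% higher and 54.2% lower over all probes tested, at a median log2 difference of 0.02 and single differences from -2.02 to 2.40. The 11 probes not tested lay at or below the floor on all arrays. Adjusted p-values in limma, over all probes tested, ran from 0.72 to 0.98 for these 75. Over all 18270 probes, 0 were called (0% background) and the median difference was -0.05. An unadjusted p under 0.05 was reached by 1 of the 75 proteasome probes, upward, against 1.46% of all probes tested upward, 0.575% downward and 2.03% in either direction, and the groups did not overlap for that same 1 probe, higher in Klf4-deficient arrays, where 2.13% of all probes did so upward and 0.958% downward.

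Without WT replicate 3, 69 proteasome probes were tested against 2 WT arrays, and 29 were higher and 40 lower, against 54.9% and 45.1% of all probes tested. The median difference turned to -0.21, where it was 0.06 over all 14950 probes tested. None was called (0% of all probes, lowest adjusted p 0.43 among the proteasome probes in limma). In that comparison the groups did not overlap downward for 8 probes, or 11.6%, against 5.10% of all probes, and upward for 2, or 2.90%, against 3.36%. At an unadjusted p under 0.05 there were 5 lower and 1 higher, against 2.35% and 1.20% of all probes, or 3.56% in either direction. The median over all proteasome probes also took a negative sign without Klf4-deficient replicate 2 (-0.04) or 3 (-0.08), and was 0.27 without WT replicate 1 and 0.26 without WT replicate 2. The spread between arrays was wide. The median SD of a proteasome probe was 1.12 (log2, n = 3) in the WT arrays and 0.55 (n = 3) in Klf4-deficient arrays, and 0.62 in WT without replicate 3.

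**Figure D2:**
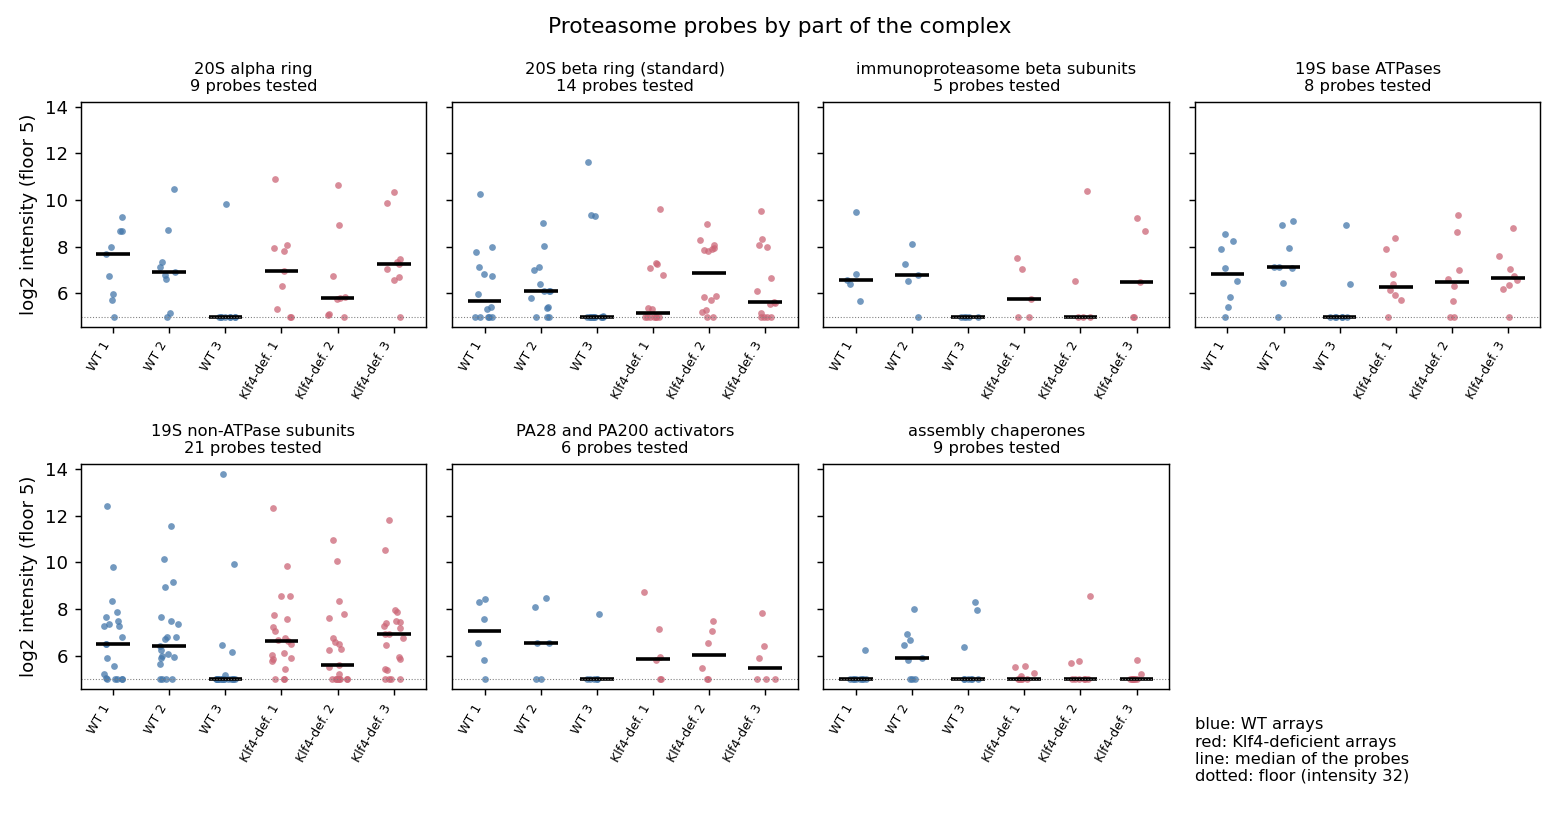
Log2 intensity of each tested proteasome probe, with values below 32 set to 5 on this scale, on the 3 WT (blue) and 3 Klf4-deficient (red) arrays, split by part of the complex, with a line at the median. In WT replicate 3 the median lies at the floor in all 7 panels, while single probes such as Psmd4 are at their brightest there.

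The alpha ring of the 20S core forms the gated entry of the barrel. Of its 11 probes, 9 were tested, 6 higher and 3 lower, with a median difference of 0.43, and of 8 probes tested without WT replicate 3, 3 were higher and 5 lower, with a median of -0.50. Psma2 was the brightest, at 618.3, 1412.6 and 11 in the WT arrays and 1926.4, 1624.1 and 1313.3 in the Klf4-deficient arrays. The 3 Klf4-deficient values exceeded WT replicates 1 and 3 but 1 of them lay below WT replicate 2, so the groups overlapped. The Psma2 difference of 2.40 ± 1.47 (log2 ± SE, n = 3 arrays per group, adjusted p = 0.72 in limma) was 0.78 ± 0.45 without WT replicate 3. Psma6 read 53.1, 110.8 and 18.5 in the WT arrays and 125.1, 56.9 and 164.3 in the Klf4-deficient arrays, a difference of 0.88 ± 0.62 (adjusted p = 0.72), or 0.46 ± 0.62 without WT replicate 3. Psma7 was above the floor on every array but WT replicate 3 on both of its probes. Its brighter probe read 402.9, 426.1 and 9.2 against 268.2, 491.8 and 154.1 (0.63 ± 1.17, or -0.60 ± 0.55 without WT replicate 3). Psma1 differed by -0.38 and Psma4 by -0.13, and without WT replicate 3 by -0.90 and -0.60. The Psma5 probes differed by 0.33 and 0.87, and without WT replicate 3 by -0.55 and 0.26. The single Psma3 probe was not above 3.1 on any array.

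The standard beta ring carries the proteolytic sites and their structural neighbours. All 14 probes were tested, 8 higher and 6 lower, with a median of 0.28, and without WT replicate 3 the median of 13 probes was 0.26, with 9 higher and 4 lower. Psmb5, the chymotrypsin-like subunit and the main target of bortezomib, was near background. It read 0.6, 55.3 and -6 in the WT arrays and 15.4, 5.1 and -2.2 in the Klf4-deficient arrays, so 1 value of 6 exceeded the floor. The difference was 1.20-fold lower in floored values (-0.26 ± 0.27, adjusted p = 0.72), or 1.31-fold without WT replicate 3, and rested on WT replicate 2. Psmb6, the caspase-like subunit, read -2.2, 69.5 and 0.1 in the WT arrays and 13.8, 236.9 and 48.3 in the Klf4-deficient arrays on its brighter probe. The highest value of each group was its replicate 2, and the groups overlapped (0.79 ± 0.85, adjusted p = 0.72). Without Klf4-deficient replicate 2 the Psmb6 difference was -0.08, and without WT replicate 3 it was 0.60 ± 1.03.

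Psmb7, the trypsin-like subunit, was measured by 4 probes, 3 of them higher and 1 lower with all arrays. When WT replicate 3 was left out, all 4 were higher, by 0.02 to 0.40, none of them called. The brightest read 140.9, 262.9 and -1.4 in the WT arrays and 109.5, 267.5 and 256.3 in the Klf4-deficient arrays, a difference of 0.89 ± 0.88 (adjusted p = 0.72) that became 0.02 ± 0.56 without WT replicate 3. Apart from that array, the groups covered nearly the same range. Probe ILMN_1221340 of Psmb7 differed by 0.53 ± 0.46 (adjusted p = 0.72), with 43, 41.2 and 15.8 in WT against 0.2, 53.2 and 100.7. Probe ILMN_2836147 was high in WT replicate 3 alone, at 634.9, with 40.6 and 21 in the other WT arrays and 41.5, 38.4 and 50.1 in the Klf4-deficient arrays. Its difference of -1.12 ± 1.22 became 0.26 ± 0.24 without WT replicate 3.

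Of the structural beta subunits, Psmb3 separated the groups once WT replicate 3 was left out. Its brighter probe read 112.5, 137.8 and -11.7 in the WT arrays and 39.6, 36.3 and 36.1 in the Klf4-deficient arrays. The Klf4-deficient values lay close together, just above the floor and below both remaining WT values. The difference was -1.09 ± 0.60 (adjusted p = 0.72), and 3.34-fold lower without WT replicate 3 (-1.74 ± 0.21, adjusted p = 0.43), so it was not called either way. Psmb4 was bright on 5 arrays, at 1212.3, 522.4 and -1.8 in the WT arrays and 790.9, 507 and 747.9 in the Klf4-deficient arrays. Its difference of 1.30 ± 1.41 (adjusted p = 0.72) was -0.25 ± 0.47 without WT replicate 3. The Psmb1 probe differed by -0.04 ± 0.40, or -0.19 ± 0.46 without that array.

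The immunoproteasome subunits did not share a direction. Of 6 probes of this part, 5 were tested, 3 higher and 2 lower, with a median of 0.28, which became -0.21 when WT replicate 3 was left out, -0.03 when Klf4-deficient replicate 3 was, and 0.91 when WT replicate 2 was. The probe of Psmb11, the thymus-specific subunit, stayed at or below 0 on all arrays. No immunoproteasome probe was above the floor in WT replicate 3.

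Psmb8, which replaces Psmb5 in the immunoproteasome, was above the floor in WT arrays only. Its brighter probe read 114.1, 92.4 and 4.5 in the WT arrays and 22.4, 2 and 1.4 in the Klf4-deficient arrays. All 3 Klf4-deficient arrays and WT replicate 3 lay at the floor. In floored values the difference was 2.18-fold lower with Klf4 deficiency (-1.12 ± 0.52, log2 ± SE, n = 3 arrays per group, with 2 of the 3 WT arrays above the floor, adjusted p = 0.72 in limma). Leaving out WT replicate 3, it was at least 3.21-fold lower (-1.68 ± 0.20, adjusted p = 0.43), which the fit across all probes did not call. The second Psmb8 probe read 94.5, 14.2 and 9.1 against 1.9, 9.8 and 6.3, with WT replicate 1 the 1 array above the floor (1.43-fold lower in floored values, -0.52 ± 0.48, adjusted p = 0.72, or 1.72-fold without WT replicate 3). Markers of dendritic cells, mature cells in which Psmb8 is abundant, summed to 3287 to 5321 in the WT arrays and 1588 to 3518 in the Klf4-deficient arrays, with 7 of 10 genes above the floor somewhere and Itgax, Xcr1 and Ciita never above 6.3. The most intense probe of that list, of Siglech, read 1331.9 to 4102.6 in WT and 1167.1 to 2870.3 in Klf4-deficient arrays. The class II gene H2-Ab1 had the sign of Psmb8 on these probes. Its probe ILMN_1226525 read 103, 417 and 1167.1 against -4.3, 43.2 and 1.5 (-3.38 ± 0.91, unadjusted p = 0.013 and adjusted p = 0.72 in limma), and ILMN_2913716 read 50.3, 169.5 and 58.9 against 8.9, 50.1 and 25.5 (-1.10 ± 0.54), the groups of both not overlapping. The H2-Ab1 probe ILMN_2631423 differed by -2.54 ± 1.31, with groups that overlapped. Cd74, the class II invariant chain, differed by -1.58 ± 1.04 on probe ILMN_1221817 and by -0.10 ± 0.17 on ILMN_1247832. Its brightest probe, ILMN_3089584, differed by -1.07 ± 1.38, with groups that overlapped and its highest value, 648.7, in Klf4-deficient replicate 2. None of these was called, and their part in the Psmb8 values was not tested.

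Psmb9, the partner that replaces Psmb6, read 84.8, 109.8 and -7.1 in the WT arrays and 133.3, 16.9 and 403.9 in the Klf4-deficient arrays. Its groups overlapped, with the highest value and 1 below the floor both among the Klf4-deficient arrays, and the difference was 0.84 ± 1.05 (adjusted p = 0.72). It was 0.31 ± 1.17 without WT replicate 3 and -0.03 without Klf4-deficient replicate 3. Psmb10, which replaces Psmb7, was the brightest of the immunoproteasome probes, at 725.1, 278.8 and -9.9 in the WT arrays and 184.4, 1331.9 and 592 in the Klf4-deficient arrays. Its difference of 1.50 ± 1.38 (adjusted p = 0.72) became 0.23 ± 1.01 without WT replicate 3. The second Psmb10 probe read 51.2, 151.9 and 15.8 against 54.3, 92.4 and 88.4 (0.28 ± 0.64, or -0.21 ± 0.59 without that array).

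**Figure D3:**
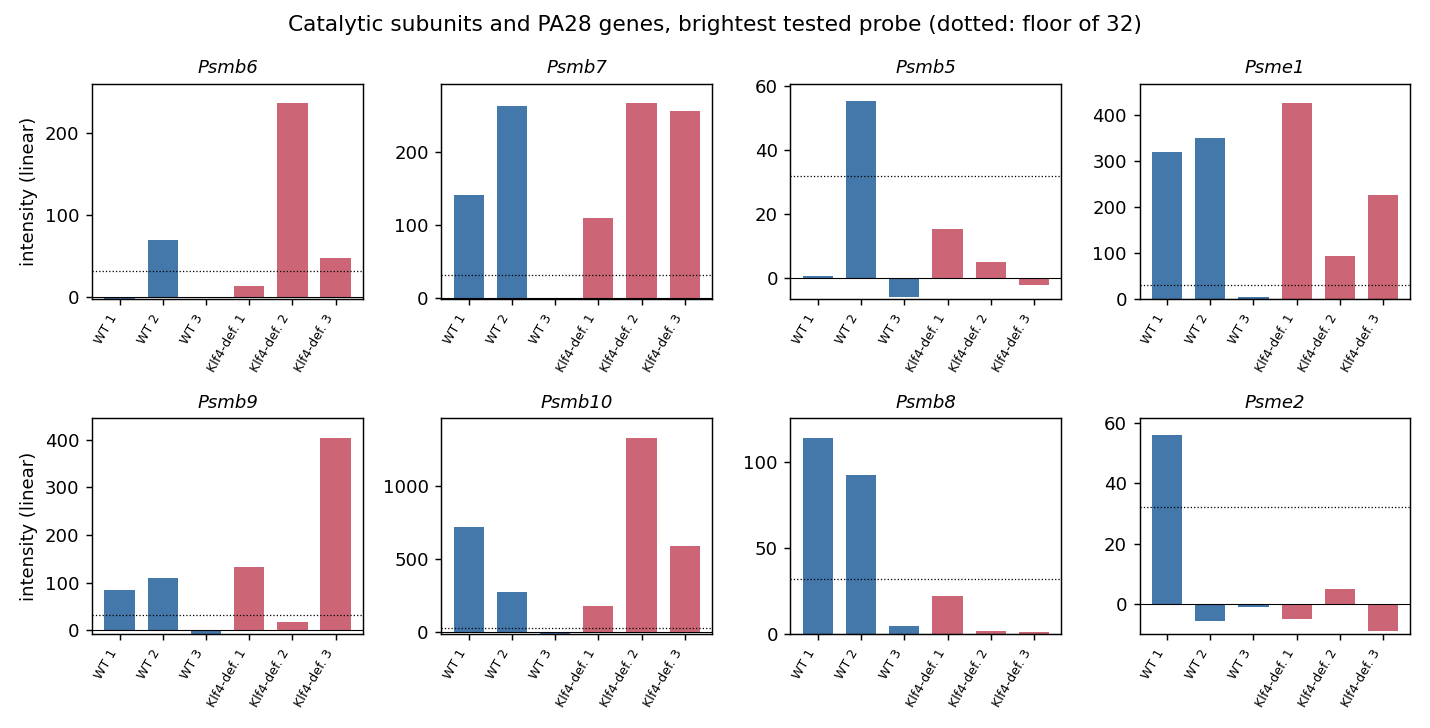
Intensity on a linear scale of the brightest tested probe of Psmb6, Psmb7, Psmb5, Psme1, Psmb9, Psmb10, Psmb8 and Psme2 on the 3 WT (blue) and 3 Klf4-deficient (red) arrays, with a dotted line at 32. Psmb8 is above that line in WT replicates 1 and 2 and in no Klf4-deficient array, and WT replicate 3 is below it for all 8 genes.

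The proteasome activators other than the 19S regulator had 6 probes, all tested, of which 2 were higher and 4 lower (median -0.50). With the 5 other arrays, 1 was higher and 5 lower (median -0.65). Psme1, the PA28 alpha subunit, read 319.1, 349.4 and 4.1 in the WT arrays and 425.3, 94.3 and 226 in the Klf4-deficient arrays on its brighter probe. Its difference of 0.45 ± 1.14 (adjusted p = 0.85) turned to -0.68 ± 0.71 without WT replicate 3 and to -0.07 without Klf4-deficient replicate 1. The second Psme1 probe, named after its values were seen, read 92, 269.6 and 1.2 against 61.4, 43.8 and 60. With all arrays it differed by -0.77 ± 0.80 and its groups overlapped. Without WT replicate 3 its groups did not overlap and it was 2.89-fold lower (-1.53 ± 0.54, adjusted p = 0.84), which was not called. Psme2, the PA28 beta subunit, was above the floor on 1 array, WT replicate 1, at 55.8, with the other 5 arrays from -9 to 5.1 (1.20-fold lower in floored values, -0.27 ± 0.28, adjusted p = 0.72).

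Psme3, which encodes the nuclear activator PA28 gamma, was among the few members above the floor on all arrays, WT replicate 3 included. It read 339.9, 93.3 and 222.3 in the WT arrays and 139.2, 132 and 84.5 in the Klf4-deficient arrays. The groups overlapped through WT replicate 2, and the difference was -0.73 ± 0.54 (adjusted p = 0.72), or -0.62 ± 0.66 without WT replicate 3. Psme4, the large nuclear activator PA200, gave opposite signs on its 2 probes. Probe ILMN_1230087 read 190.2 in WT replicate 1 and at most 14.5 on the others (1.81-fold lower in floored values, -0.86 ± 0.76, adjusted p = 0.72, or 2.44-fold without WT replicate 3). Probe ILMN_2947187 read -4.5, 93.2 and -9.6 against 55.6, 181.1 and 11, a difference of 0.59 ± 0.80, or 0.33 ± 0.95 without WT replicate 3.

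The 6 ATPases of the 19S base, which form the ring that threads substrates into the core, were the most evenly detected part. Each of the 6 genes had a probe above the floor on all arrays other than WT replicate 3, and Psmc2 on that array too. Of 8 probes tested, 4 were higher and 4 lower (median 0.13). With the 5 other arrays, 1 of 7 was higher and 6 were lower (median -0.36). Psmc2 read 298.6, 541.7 and 84.8 in the WT arrays and 239.7, 657.5 and 194.9 in the Klf4-deficient arrays on its brighter probe (0.39 ± 0.85, or -0.36 ± 0.67 without WT replicate 3). Psmc5 read 376.5, 482.7 and 1.9 against 329, 393.9 and 448, a narrow range apart from WT replicate 3, without which it differed by -0.14 ± 0.26.

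For Psmc6, its probes ILMN_2631558 and ILMN_2434727 had the smallest unadjusted p-values of the ATPases and opposite signs. The first read 43, 136.3 and -5.1 in the WT arrays and 70, 99.2 and 132.5 in the Klf4-deficient arrays (0.76 ± 0.62, adjusted p = 0.72), or 0.35 ± 0.62 without WT replicate 3. The second was above the floor only in WT replicate 3, at 481.9, and between -18.2 and 18.4 on the other arrays (2.47-fold lower in floored values, -1.30 ± 1.15, adjusted p = 0.72). Psmc1, Psmc3 and the dimmer probe of Psmc2, named after their values were seen, were the ATPase probes whose groups did not overlap without WT replicate 3. Psmc1 then was 2.35-fold lower (-1.24 ± 0.46), with 242.4 and 139.1 in WT against 85.3, 51.2 and 108.6. Psmc3 was 1.77-fold lower (-0.83 ± 0.27), with 135.9 and 139 against 61.4, 79.1 and 96.1. Each had an adjusted p of 0.84, and with all 6 arrays their differences were -0.40 ± 0.83 and -0.12 ± 0.65.

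The non-ATPase subunits of the 19S regulator, which scaffold it and recognise and strip ubiquitin, had 21 of 23 probes tested, 11 higher and 10 lower (median 0.04). On the 5 other arrays, 9 were higher and 12 lower (median -0.13). Psmd12, a scaffold subunit of the lid, had the smallest unadjusted p of all proteasome probes and was the 1 whose groups did not overlap with all 6 arrays. Its probe ILMN_1216211 read 26, 59.2 and -5.1 in the WT arrays and 64.8, 90.2 and 233 in the Klf4-deficient arrays. All 3 Klf4-deficient values lay above the highest WT value, the lowest of them by a small margin. The difference was 1.50 ± 0.57 (log2 ± SE, n = 3 arrays per group, unadjusted p = 0.045 and adjusted p = 0.72 in limma), or 1.35 ± 0.68 without WT replicate 3, and was not called. The other Psmd12 probe had the opposite sign, at 32.5, 177.3 and 71.8 against 98.7, 25.6 and 19 (-0.68 ± 0.79).

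Psmd1, the large scaffold of the base, was higher in Klf4-deficient arrays on both probes tested, without being called. Its brighter probe read 59.8, 166 and 26.6 in the WT arrays and 379.3, 328.5 and 107.6 in the Klf4-deficient arrays. The groups overlapped only through WT replicate 2 and Klf4-deficient replicate 3. The difference was 1.80 ± 0.80 (adjusted p = 0.72), or 1.25 ± 0.79 without WT replicate 3, and 2.44 without WT replicate 2. Psmd1 probe ILMN_2440046 read 152.7, 110 and -8.5 against 212, 109.3 and 170.2 (0.96 ± 0.67, or 0.29 ± 0.38 without WT replicate 3), and its remaining probe was not above 28.2 on any array. Psmd13, a lid subunit, read 895.4, 1122.1 and -10.9 in the WT arrays and 927.6, 1052.2 and 1461.6 in the Klf4-deficient arrays. Its difference of 1.82 ± 1.47 was 0.17 ± 0.30 without WT replicate 3.

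Psmd7, a lid subunit that pairs with the deubiquitinase Psmd14, is described for the contrast between its probes, which was seen in the values. Probe ILMN_1220284 read 329, 576.5 and 19.1 in the WT arrays and 91, 76.8 and 88.8 in the Klf4-deficient arrays. Without WT replicate 3 it was 5.11-fold lower (-2.35 ± 0.32, adjusted p = 0.48), the most negative difference among the proteasome probes there, and with all arrays it was -1.10 ± 1.13. Probe ILMN_2630438 read 112.3, 111.9 and 961.4 in the WT arrays and 187.2, 192.9 and 145.4 in the Klf4-deficient arrays. That probe was, on the 5 other arrays, 1.55-fold higher (0.63 ± 0.23, adjusted p = 0.84), and with all arrays it was -0.40 ± 0.92. These 2 probes thus separated the groups in opposite directions only without WT replicate 3. With all arrays both were lower and their groups overlapped. The remaining Psmd7 probe, ILMN_1253915, read -0.9, 4 and -0.4 against 102.4, 37.5 and 10 (0.64 ± 0.48, or 0.64 ± 0.60 without WT replicate 3), with groups that overlapped. Psmd14 itself had opposite signs on its 2 probes with all arrays (0.57 and -0.40), and was lower on both without WT replicate 3 (-0.53 and -1.10).

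**Figure D4:**
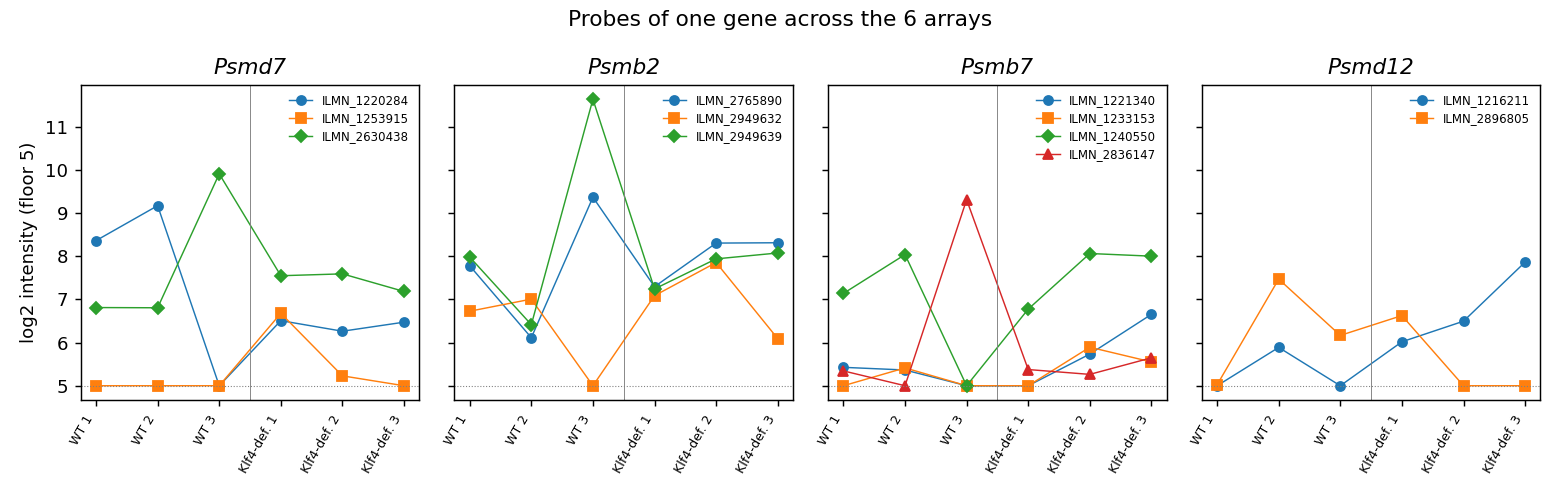
Log2 intensity, with values below 32 set to 5 on this scale, of every probe of Psmd7, Psmb2, Psmb7 and Psmd12 on the 6 arrays, with a vertical line between WT and Klf4-deficient arrays. For Psmd7, Psmb2 and Psmb7, 1 or more probes peak in WT replicate 3 where another probe of the same gene lies at the floor.

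Probes of one gene often disagreed in this way. Of 23 subunit and chaperone genes with several tested probes, 12 had 1 sign on all of them and 11 had both. Without WT replicate 3 this was 11 and 8 of 19 genes. Psmb2, a structural beta subunit, read 3184.5 on ILMN_2949639 and 660.3 on ILMN_2765890 in WT replicate 3, and -3.1 on ILMN_2949632. On the other 5 arrays its probes ranged from 85.3 to 269.7, from 69.2 to 317.9 and from 68.2 to 231.4. The 3 Psmb2 differences were -0.93, 0.22 and 0.77 with all arrays. They were 0.55, 1.02 and 0.14 without WT replicate 3, of 1 sign but not called.

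**Figure D5:**
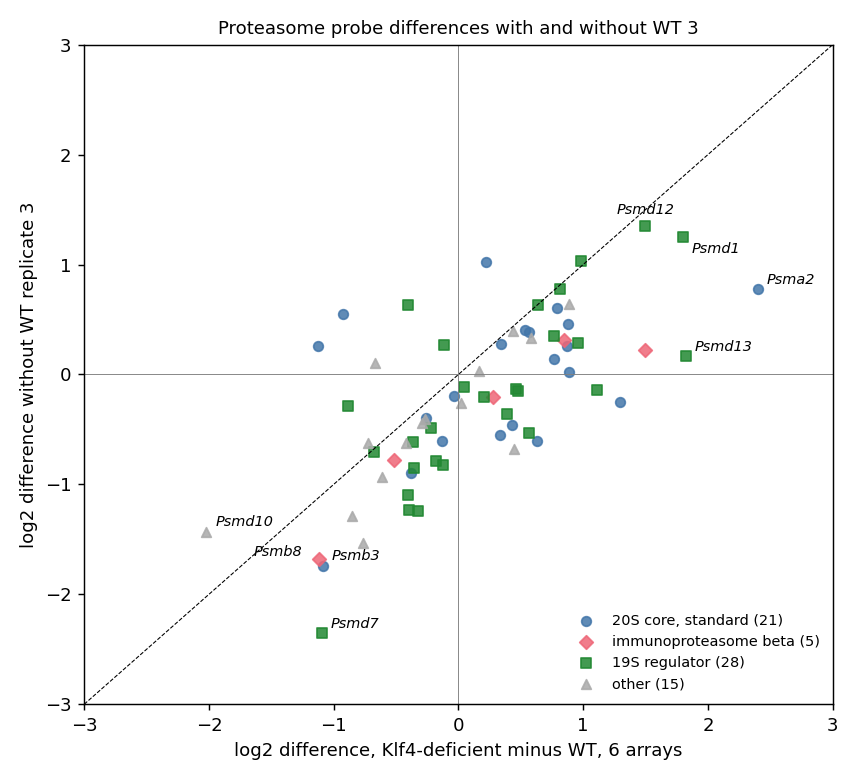
Log2 difference, Klf4-deficient minus WT, of the 69 proteasome probes tested both ways, with all 6 arrays (x axis) and without WT replicate 3 (y axis), coloured by part of the complex, with a dashed line of equality. Many probes lie below the line: Psma2 goes from 2.40 to 0.78, Psmd13 from 1.82 to 0.17, Psmb8 from -1.12 to -1.68 and Psmd7 (ILMN_1220284) from -1.10 to -2.35.

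The assembly chaperones, which build the rings and the base and leave the finished particle, had 7.69% to 46.2% of their probes above the floor on the 5 other arrays. This was less than in any other part of the complex on each of those arrays, while in WT replicate 3 it was 23.1%, above 5 of the 6 other parts. Of 13 probes, 9 were tested, 3 higher and 6 lower (median -0.42), and 2 and 5 of 7 without WT replicate 3 (median -0.44). No gene of this part was above the floor on all 5 of the other arrays. Psmd10, the chaperone gankyrin, which is also known as an oncoprotein of liver cancer that promotes p53 degradation, read 18.5, 257.3 and 310.6 in the WT arrays and 24.4, 20.8 and 37.2 in the Klf4-deficient arrays on probe ILMN_1239384. WT replicates 2 and 3 stood above all Klf4-deficient values, and WT replicate 1 lay at the floor with Klf4-deficient replicates 1 and 2. The difference was -2.02 ± 0.93 (adjusted p = 0.72), or -1.43 ± 0.96 without WT replicate 3 and -3.07 without WT replicate 1. Another Psmd10 probe, ILMN_3003308, had the opposite sign (0.88 ± 1.07), led by 377 in Klf4-deficient replicate 2. Psmd5, a base chaperone, was high in WT replicate 3 alone on probe ILMN_2765213, at 249.1, with at most 16.5 elsewhere (1.98-fold lower in floored values, -0.99 ± 0.88, adjusted p = 0.72). Psmg1 and Psmg3 did not exceed the floor, Psmg2 exceeded it on 1 WT array for each of 2 probes, and Psmg4 differed by 0.16 ± 0.34, or 0.03 ± 0.39 without WT replicate 3.

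Probes seen on a single array were all on the WT side. Of 12 proteasome probes above the floor on exactly 1 array, 4 were in WT replicate 1, 2 in WT replicate 2, 6 in WT replicate 3 and 0 in a Klf4-deficient array. Over the whole array, 63.8% of 8545 such probes were in WT arrays, 38.9% in WT replicate 3. Psmb8, Psmd5, Psme2 and Psme4 supplied the WT replicate 1 values, and Psmb5 and Psmg2 those of WT replicate 2. Of the genes that share only the prefix, Psmc3ip was not above 17.1 on any array, and Psme3ip1 differed by -0.67, -0.36 and 0.44 on its 3 probes, the first turning to 0.10 without WT replicate 3.

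Genes that act with the proteasome were compared through 5 fixed lists of 48 genes, of which 36 had a named probe. None of their 58 tested probes was called by limma, none reached an unadjusted p under 0.05 (2.03% of all probes tested did), and 34 were higher and 24 lower (58.6% higher, against 45.8% of all probes, median 0.14). Of 12 probes of associated and assembly factors, 8 were higher (median 0.46), with Ecpas, a scaffold that binds the 26S particle, at 1.08 ± 0.87 (0.17 ± 0.45 without WT replicate 3) and Txnl1, a thioredoxin of the regulator, at 0.44 ± 0.41. The Txnl1 probe was above the floor only in Klf4-deficient replicate 1, at 80.1. The other tested Ecpas probe differed by -0.04 ± 0.15. Of 12 probes of transcriptional regulators of proteasome genes, 9 were higher (median 0.26). The small Maf proteins Maff and Mafg, partners of NRF factors, were at 0.55 ± 0.50 and -0.78 ± 0.70 (-1.17 ± 0.76 for Mafg without WT replicate 3). That Maff probe was above the floor only in Klf4-deficient replicate 1, at 99.9, and the other Maff probe had the opposite sign (-0.23 ± 0.25). That Mafg probe was above the floor only in WT replicate 1, at 162.7. Of the ubiquitin genes and activating enzymes, Uba6 alone had a named probe here, and its 2 probes differed by 1.17 ± 1.42 and -0.45 ± 0.42. The first turned, when WT replicate 3 was left out, to -0.32 ± 0.69, and the second, at 81.5 on that array and below the floor elsewhere, was not tested. Of 15 probes of shuttle factors and the VCP segregase, 8 were higher (median 0.05), with Vcp at -0.78 ± 0.63 and the shuttle Ubqln2 at -1.33 ± 1.05. That probe of Ubqln2 (ILMN_2428009) read 455.9 in WT replicate 3 and 31.6 to 50.6 elsewhere, and without that array it was at -0.17 ± 0.31 and Vcp at -0.35 ± 0.63. The other tested Ubqln2 probe differed by -0.36 ± 1.09, and by 0.69 ± 0.72 without that array. Of 17 probes of interferon control and MHC class I loading, the setting of the immunoproteasome, 8 were higher and 9 lower (median -0.02). B2m, the light chain of MHC class I, was at 0.73 ± 0.61 on its dimmest probe (ILMN_2670561), or 0.40 ± 0.67 without WT replicate 3. The brighter B2m probes, ILMN_1216746 and ILMN_2739999, were also higher with all arrays. Without WT replicate 3 they were at 0.07 ± 0.57 and -0.11 ± 0.38. Tapbpl, a peptide editor, was at -0.94 ± 0.84, or -1.41 ± 0.90 without WT replicate 3. That Tapbpl probe was above the floor only in WT replicate 1, at 226.5, and the other Tapbpl probes on no array. Each value given here with all arrays had an adjusted p of 0.72 in limma, except the other Ubqln2 probe at 0.88 and the other Ecpas probe at 0.90. With the 5 other arrays none was called, and the medians were -0.07, 0.10, -0.13 and -0.10 for the lists with more than 2 probes, in the same order.

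Markers of the sort gate and of other blood cells were measured beside these genes. Of 14 LSK genes, 12 had a named probe and 11 were above the floor on some array, and their summed intensity was 784 to 2548 in WT and 1206 to 1591 in Klf4-deficient arrays. Kit, the gene of c-Kit, exceeded it on at least 1 of its probes in WT replicates 2 and 3 and in Klf4-deficient replicates 1 and 3, and Ly6a, the gene of Sca-1, was not analysed here. Summed intensities of the erythroid list were 3179 to 4767 in the WT arrays and 5229 to 5920 in the Klf4-deficient arrays, the one list whose groups did not overlap. The neutrophil list summed to 4494 to 9263 and 3125 to 4569, and the monocyte list to 151 to 558 and 156 to 222. In both lists the highest sum was that of WT replicate 3. The T and NK cell list summed to 2707 to 6970 and 2020 to 5187, and the B cell list, with Pax5, Ms4a1, Cd79b and Igll1 never above the floor, to 76.6 to 136 and 78.8 to 217. Most of the T and NK sum was 1 probe of Prf1, at 2567.7 to 6855.6 in WT and 1706.1 to 4834.5 in Klf4-deficient arrays. Other probes of that list had both signs, such as Thy1 (ILMN_2644350) at 2.19 ± 0.24 and Cd3d at -0.94 ± 0.83, none of them called. Whether these sums reflect the makeup of the samples, or bear on the proteasome values, was not tested.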

How the data were processed

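RNA of 6 sorted samples was hybridised to one-colour Illumina bead arrays and scanned by a contract laboratory, per the labels' protocols. The submitters' processing notes name BeadStudio, whose version, background method and normalization the sources used here do not give. Each deposited value is an intensity on a linear scale. Values below 0 occur, and the sorted values of the 6 columns were within 5% or 0.15 of each other at 95.4% of ranks, so background had been subtracted and the arrays put on one scale. No further normalization was applied. Such scaling hides differences in total RNA.

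Groups came from the sample titles. Values below 32 were set to 32 and log2 taken. The words "at least" mark the fold of a group wholly above the floor against one wholly at it, which understates the difference. Folds "in floored values" had floored arrays in both groups and are not such limits. Probe names come from the platform annotation (34885 probes with 1 symbol, 18 with several, 10378 not listed), with symbols updated through Entrez numbers. Probe sequences were not used here. The 18270 probes above 32 on at least 1 array were fitted, Klf4-deficient minus WT, with limma 3.58.1 (lmFit, eBayes) in R 4.3.3, where the package data.table (version 1.17.8) handled values, and Benjamini-Hochberg adjustment over all of them at 0.05. SE is limma's moderated standard error. The fit was tested on simulated data. Precision is limited by the number of arrays.

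The proteasome genes and all lists were chosen with earlier results of these data known. Values and fits are given by rule for the brightest tested probe of Psmb5 to Psmb10, Psme1 and Psme2, and for the 2 tested probes with the smallest unadjusted p in each part of the complex and each list. Other genes were named after their values were seen. Alternatives were floors of 64 and 16, an offset of 16, no filter, a filter at percentile 75 of probe means, trend and robust eBayes, array weights, the replicate number as a block, the brightest probe or the mean of probes per gene, and leaving out each array.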

Additional observations from a re-analysis of the deposited data

How the results depend on the processing

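Signal over background and 3 arrays per group, of which WT replicate 3 stands apart, limit what these data can show. Under all 16 alternatives 0 proteasome probes were called. Over the whole array 0 features were called except for 1, the unnamed probe ILMN_2944601, without a filter and when probes were averaged by gene. Of 163 values of the 21 named probes under alternatives other than leaving out an array, 162 kept their direction, and 1 reversed, Psme1 (ILMN_2986309) at -0.65 with array weights, which gave WT replicate 3 a weight of 0.065. Many of the 163 could not reverse. Dropping the filter, the percentile filter, trend and robust eBayes and the block leave each probe's fitted difference as it was. Leaving out 1 array at a time reversed 3 of these 21 named probes: Psme1 ranged from -0.68 to 1.04, Psmb6 from -0.076 to 1.37 and Psmb9 from -0.032 to 1.80. Of the 69 proteasome probes tested with and without WT replicate 3, 19 changed sign, among them Psma7, Psmb4 and Psmc5. The median over all proteasome probes ranged from -0.21 to 0.27, of the 20S core with immunoproteasome subunits from 0.08 to 0.60, of the 19S regulator from -0.18 to 0.27 and of the immunoproteasome from -0.21 to 0.91. With array weights these medians were -0.12, 0.05, -0.15 and -0.06, against 0.02, 0.34, 0.04 and 0.28, and the immunoproteasome median was -0.08 with a floor of 64. The cause was not tested. With the replicate number as a block 0 features were called. Each block held 1 array of each group, so the block could not change a fitted difference or a median. Deviations of same-numbered arrays correlated at r = 0.032 to 0.040 across probes, and those of differently numbered arrays at -0.029 to -0.0076. Values this small do not settle whether the numbers pair the arrays.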
